A study of Mus musculus with 6 samples.

Results

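Blimp1 (encoded by Prdm1), Bcl6 and Bach2 are transcriptional repressors that set one another's levels in lymphocytes. Their transcripts were followed here in CD4+ Foxp3-GFP+ pTreg cells, peripheral regulatory T cells that arose from naive T cells after transfer into lymphopenic mice. Of the 19057 genes named on the array, these are 3, and all of their probes were taken, 4 of 45281, with 2 for Prdm1, 1 for Bcl6 and 1 for Bach2. Each was read on 6 arrays, 3 of Ctrl and 3 of CKO cells.

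Ctrl cells came from Prdm1+/+ CD4-Cre+ mice carrying a Foxp3-GFP reporter and the Thy1.1+ allotype, and CKO cells from C57BL/6 mice with Prdm1 flox/flox, CD4-Cre+, the same reporter and the Thy1.2+ allotype. Both genotypes thus carried Cre, which the CD4 promoter drives in all T cells from a thymic stage on, so that the deletion is not particular to Treg cells. Naive CD4+ T cells of both genotypes, sorted from pooled lymph nodes and spleen, were mixed in equal numbers and injected into RAG1-/- mice, which lack T and B cells of their own but keep myeloid cells, and the pTreg cells were sorted some weeks later. The labels name the cells both peripheral Treg and iTreg cells, and mark the samples of replicates 2 and 3, but not of replicate 1, with P+I, which they do not spell out. Both arrays of replicate 1 lay on slide 1 and the other 4 arrays on slide 2. The floxed mice are cited in the study's methods from earlier work. Neither the methods nor the labels name the exons removed, and the positions of the Prdm1 probes against the deleted part are not given either. The Prdm1 signal of these arrays therefore checks nothing about the deletion. The study measured Prdm1 mRNA by qRT-PCR in sorted Treg and effector T cells of CD4-Cre CKO mice. It calls deletion by CD4-Cre substantially more efficient than by distal Lck-Cre. From array data that include these samples, it reports Prdm1 and Bcl6 as up regulated in both CKO pTreg and effector T cells. It describes both as genes that Blimp1 was earlier found to repress directly in different cell types. Groups were taken as labelled.

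Blimp1, a zinc finger protein with a PR domain, recruits histone-modifying corepressors. It is known for driving plasma cell differentiation, and in T cells for restraining IL-2 and for marking effector Treg cells that make IL-10. Bcl6, a BTB zinc finger repressor, directs follicular helper T cells and germinal centre B cells, and it and Blimp1 are known to repress each other's genes, while Blimp1 can also act on its own gene. Bach2, a basic leucine zipper repressor that pairs with small Maf proteins, competes with AP-1 at shared sites, holds back effector genes in T cells and is known to repress Prdm1.

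The promoters of the members are shown because each protein is known to act on the genes of the others. The sequences are those of RefSeq on GRCm38.p6, 5′ to 3′ on the strand of the gene, from 250 bases before to 50 bases after the annotated start. Capitals mark matches, on either strand, to 3 motifs. AGNGAAAG is the core recognised by Blimp1, TTCCNNGAA a core bound by Bcl6, and TGANTCA the site that AP-1 and Bach proteins share. No match of one motif overlaps another in these windows.
Prdm1 promoter: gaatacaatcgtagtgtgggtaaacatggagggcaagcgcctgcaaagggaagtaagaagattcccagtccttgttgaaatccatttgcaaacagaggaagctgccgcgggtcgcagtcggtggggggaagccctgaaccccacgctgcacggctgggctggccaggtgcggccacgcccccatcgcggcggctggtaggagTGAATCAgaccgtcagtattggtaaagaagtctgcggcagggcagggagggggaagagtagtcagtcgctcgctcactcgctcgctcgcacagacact
Bcl6 promoter: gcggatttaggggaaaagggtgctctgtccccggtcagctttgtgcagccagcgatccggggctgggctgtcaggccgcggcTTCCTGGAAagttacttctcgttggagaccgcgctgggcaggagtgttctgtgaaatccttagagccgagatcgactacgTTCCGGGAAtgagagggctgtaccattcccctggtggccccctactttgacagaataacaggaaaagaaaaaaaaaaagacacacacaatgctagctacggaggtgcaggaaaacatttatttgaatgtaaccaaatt
Bach2 promoter: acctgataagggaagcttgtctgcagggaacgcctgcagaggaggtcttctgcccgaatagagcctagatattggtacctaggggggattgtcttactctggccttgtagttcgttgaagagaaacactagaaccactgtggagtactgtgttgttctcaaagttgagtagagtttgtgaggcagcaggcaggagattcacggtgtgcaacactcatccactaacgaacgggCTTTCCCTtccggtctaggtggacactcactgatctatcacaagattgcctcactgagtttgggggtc
The Prdm1 window (chr10:44458699-44458998, reverse strand) held 1 AP-1 and Bach motif, TGAATCA, which begins 48 bases before the start. The Bcl6 window (chr16:23981234-23981533, reverse strand) held 2 Bcl6 motifs, TTCCTGGAA beginning 168 bases and TTCCGGGAA beginning 88 bases before the start. A second annotated Bcl6 promoter (chr16:23988803-23989102, reverse strand), not shown, held no match to any of the 3. In the Bach2 window (chr4:32417185-32417484, forward strand) the Blimp1 motif was found on the opposite strand, as CTTTCCCT, beginning 18 bases before the start. Of all 32851 promoter windows of this length, 8.63% held the Blimp1 motif, 4.81% the Bcl6 motif and 7.81% the AP-1 and Bach motif, so that such matches are common. They are matches of letters and not measured binding sites.

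Prdm1 and Bcl6 transcripts were both more abundant in pTreg cells labelled CKO, whereas Bach2 was not above background on any array. Values are normalised intensities on a linear scale after background subtraction, and the background of an array, set as the 95th percentile over probes of olfactory and vomeronasal receptors, lay between 6.18 and 9.55. The brighter Prdm1 probe, ILMN_2597923, gave 18.9, 50.9 and 49.2 in Ctrl replicates 1, 2 and 3, and 561, 341 and 704 in CKO replicates 1, 2 and 3. All 6 arrays were above background, the Ctrl arrays by 3.06 to 5.87 times and the CKO arrays by 37.2 to 79.1 times, and the lowest CKO array lay far above the highest Ctrl array. Ctrl replicate 1 was the dimmest array and CKO replicate 3 the brightest. Group means were 39.7 ± 18.0 in Ctrl and 535 ± 183 in CKO cells (SD, n = 3 each).

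Prdm1 rose by 3.82 on the log2 scale (SE 0.45, 95% confidence interval 2.79 to 4.86), a 14.2-fold difference, with an adjusted p of 0.0276 in limma. It was rank 2 of the 9593 genes tested by log2 fold change from the highest, and rank 10 by p. The other Prdm1 probe, ILMN_2744650, gave -8.94, -1.31 and 1.09 in Ctrl and 0.788, -4.20 and -2.96 in CKO cells. It was above background on 0 of 6 arrays, so that it has no fold change, and the result for Prdm1 stands on 1 of its 2 probes.

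Bcl6 was measured by 1 probe, ILMN_1230353, and Ctrl replicates 1, 2 and 3 gave 97.9, 91.3 and 136. The CKO arrays, in the same order, gave 500.4, 482 and 306. Every array was above background, by 10.5 to 15.8 times in Ctrl and by 34.4 to 66.6 times in CKO cells, and the groups did not overlap. Means were 108 ± 23.9 in Ctrl and 429 ± 107 in CKO cells (SD, n = 3 each). Bcl6 rose by 1.98 (SE 0.28, 95% confidence interval 1.32 to 2.63, log2 scale), or 3.93-fold, with a limma adjusted p of 0.0483. It was rank 22 by log2 fold change and rank 26 by p, the last of the 26 genes that passed.

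Bach2 was represented by ILMN_2579880, which gave 0.353, 0.459 and -7.03 in Ctrl and 2.18, 3.87 and -3.92 in CKO replicates 1, 2 and 3. These values scatter about 0 in both groups and all lie below the background of their arrays, so Bach2 was not tested. A Bach2 transcript below the detection limit of this probe, in either genotype, would not be seen.

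**Figure D1:**
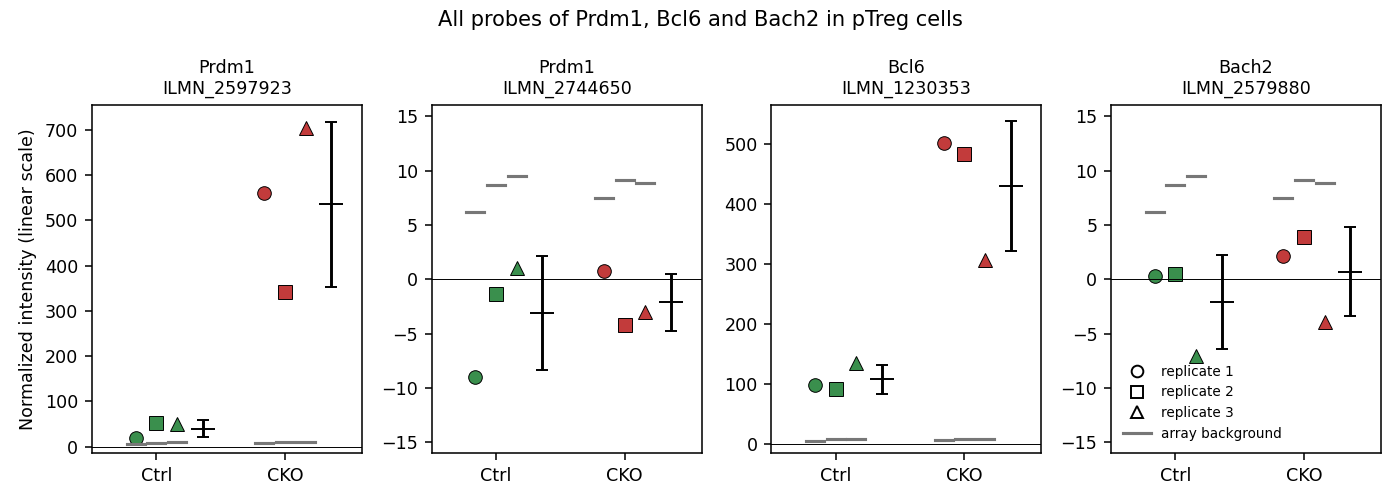
Normalised intensity (linear scale, one panel per probe with its own axis) of the 4 probes of Prdm1, Bcl6 and Bach2 on the Ctrl (green) and CKO (red) arrays, with symbols for the replicate, grey dashes for the background of each array, and the mean ± SD of each group in black. The CKO arrays lie between 341 and 704 for Prdm1 and between 306 and 500.4 for Bcl6, above all Ctrl arrays, while the second Prdm1 probe and the Bach2 probe stay below background on all 6.

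Both members that could be tested rose, where 0.115% of the 9593 genes rose and 0.156% fell at an adjusted p under 0.05. A gap between the groups in that direction, as seen for both, was found in 5.95% of genes, and the thresholds of the study (1.5-fold or more, at an unadjusted p under 0.05) were met by 3.09% of genes in that direction. The members were chosen with earlier results of these data known, so that this is a description of where they stand among all genes. With every probe as a row of its own (17294 probes, of which 0.052% rose), Prdm1 kept its call (adjusted p = 0.0411) and Bcl6 did not (adjusted p = 0.0707), again in limma.

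**Figure D2:**
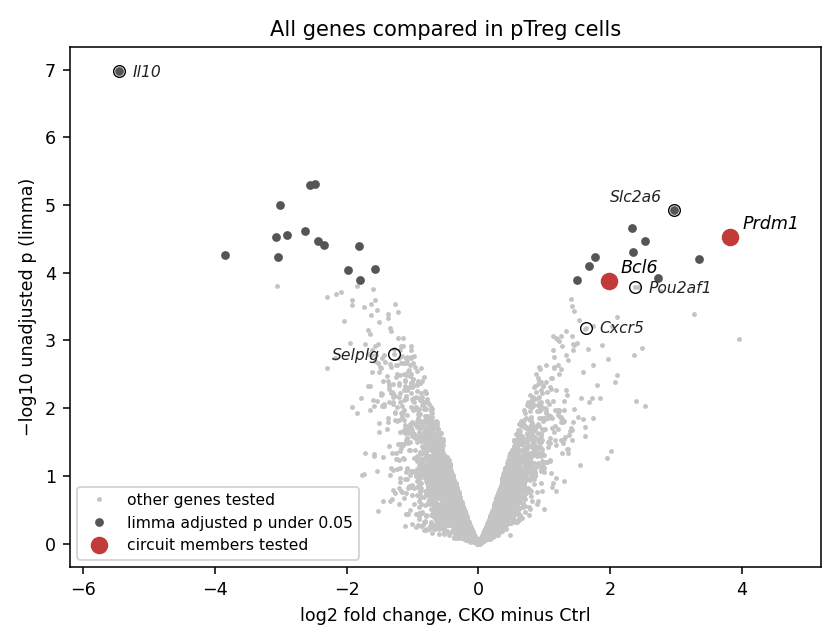
Log2 fold change (CKO minus Ctrl) against the −log10 of the unadjusted limma p for the 9593 genes tested, each point a gene, with those at an adjusted p under 0.05 in dark grey, Prdm1 and Bcl6 in red and 5 other genes of the text circled. Prdm1, at 3.82, lies near the right edge of the plot, and Bcl6, at 1.98, among the last genes to pass.

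The order of the replicates was not the same for Prdm1 and Bcl6. Samples with one number were read as pairs, since Ctrl and CKO cells were injected together, same-numbered arrays deviated together, and the labels give those of replicates 2 and 3 a shared day. Within the pairs of replicates 1, 2 and 3, the log2 difference of Prdm1 was 4.89, 2.74 and 3.84, and that of Bcl6 was 2.35, 2.40 and 1.17. Replicate 3 thus had the highest Prdm1 and the lowest Bcl6 of the CKO arrays, and the pair with the largest Prdm1 difference, replicate 1, held the dimmest Ctrl array. The difference on slide 2 minus that on slide 1 was -1.60 for Prdm1 (unadjusted p = 0.076) and -0.57 for Bcl6 (unadjusted p = 0.40), and 0 genes passed for this term at an adjusted p under 0.05 in limma, against 233 (2.43%) at an unadjusted p under 0.05. A fit with the slide as a block, in which 0.0313% of genes rose, gave adjusted p-values of 0.0460 for Prdm1 and 0.0824 for Bcl6, so that Bcl6 lost its call. All samples marked P+I lay on slide 2 and those without the mark on slide 1, so slide and mark cannot be told apart.

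The adjusted p-values were sensitive to the number of arrays, the fold changes less so. When any 1 of the 6 arrays was left out, the Prdm1 log2 fold change stayed between 3.38 and 4.11 with adjusted p-values of 0.0523 to 0.143, and the Bcl6 log2 fold change between 1.86 and 2.20 with 0.0858 to 0.223. The number of genes called was then 1 to 10, and neither Prdm1 nor Bcl6 was among them. With the replicate number as a block, Prdm1 and Bcl6 kept their calls (adjusted p = 0.0104 and 0.0273) and 0.751% of genes rose and 1.16% fell.

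**Figure D3:**
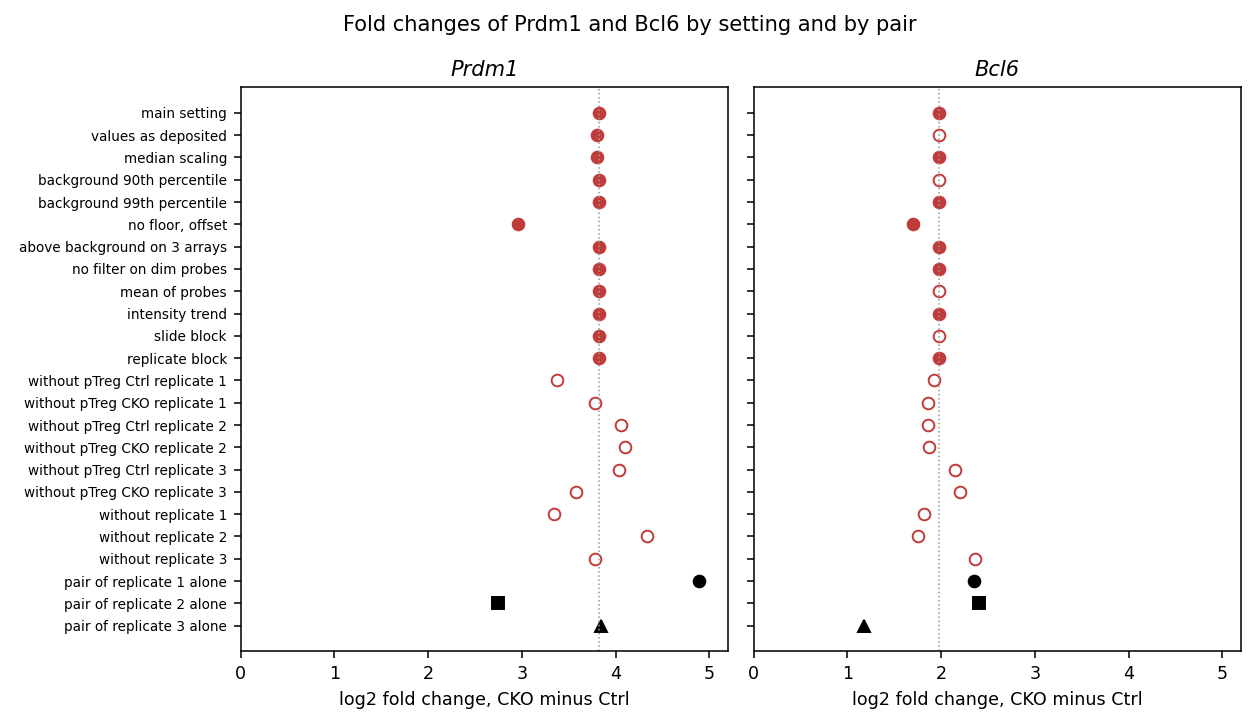
Log2 fold change (CKO minus Ctrl) of Prdm1 and Bcl6 under each processing setting, with arrays or pairs left out, and in each pair of replicates alone (black symbols, no test), where filled circles have a limma adjusted p under 0.05, open circles do not, and the dotted line is the reported value. All values are above 0, and with arrays or pairs left out all circles are open.

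Markers of other cells were read beside these results, since plasma cells express Prdm1 and germinal centre B cells express Bcl6. Of 7 B and plasma cell markers with a probe, 0 were above background on all arrays. At the brightest probe of each gene, Cd22 and Tnfrsf17 (the receptor BCMA) were above it on none. Jchain, Sdc1, Pax5 and Cd79b were above it on 1 array each, and Ms4a1 on 3. Other probes of Cd22 and Cd79b reached 1 and 2 arrays. The summed intensity of the brightest probes, where above background, was 0 to 23.04 per array. Only Ms4a1 and Cd79b were tested, both with a log2 fold change of 0.05. Of 7 T cell markers with a probe, 6 were above background on all arrays. The brightest were Cd3d, at 2561 to 4700, and Thy1, at 3203 to 5229. Cd4 was much dimmer, at 17.2 to 62.8, and Cd5 was above background on only 1 array. Foxp3, the factor that defines Treg cells, was above background on all arrays, at 141 to 480 (log2 fold change 0.03). The summed Treg markers, led by Ctla4 and Tnfrsf18, were 10612 to 14830 in Ctrl and 5494 to 6652 in CKO cells. Of the 5 genes in this sum, 3 (Ctla4, Tnfrsf18 and Ikzf2) were lower in CKO cells without overlap, as were 7.08% of all genes. Foxp3 and Il2ra overlapped between the groups, and 0 of the 5 passed in limma. In such bulk samples, fewer cells of a type and less RNA per cell cannot be told apart.

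Myeloid transcripts varied widely over the replicates, and none passed the test between the groups. Their sum ranged from 5189 to 33563, led by S100a8 (1083 to 20847) and S100a9 (442 to 9513), was lowest in both arrays of replicate 2, and lay at 5189 to 33563 in Ctrl and 6541 to 24796 in CKO cells. Itgam and Adgre1, which define many macrophages, were above background on none, and S100a8 (log2 differences of -0.77, -0.78 and -0.39 in the pairs), S100a9 and Mpeg1 were lower in the CKO array of every pair. By contrast, H2-Ab1 and Cd74 of the MHC class II pathway were higher in the CKO array of every pair. The other tested myeloid markers were mixed. Lyz1, Lyz2 and Cd14 were higher in the CKO array only in the pair of replicate 2, and Csf1r only in that of replicate 3. Erythroid Hba-a1 was at 531 to 1858, and Cd8b1 at 544 to 1031 with Cd8a, Ncr1 and Klrb1c above background on none. The part of these transcripts in the values of Prdm1 and Bcl6 was not tested.

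The genes around the circuit were read from 12 lists of textbook roles. Of the known activators of Prdm1 transcription, among them Irf4, Batf and AP-1 and STAT factors, 11 of 14 were tested and 0 rose or fell in limma or met the study's thresholds. Their median log2 fold change was -0.33, against 0.02 for all genes tested, with a range from -0.73 to 0.08. Irf4, which with Batf drives Prdm1 in activated T cells, was at 3114 ± 770 in Ctrl and 2577 ± 396 in CKO cells (SD, n = 3 each), a difference within the spread between replicates.

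Of the corepressors that Blimp1 recruits, 8 of 10 were tested, 0 passed in limma and 1 met the study's thresholds in the lower direction, where 4.34% of all genes did. This was Tle5, a Groucho-family protein, with a log2 fold change of -0.78 (SE 0.27, adjusted p = 0.424) and of -1.48 at its other probe. The list median was -0.01. Among genes known to be repressed by Blimp1 in lymphocytes, 9 of 13 were tested, 0 passed, and 2 met the study's thresholds in the higher direction, where 3.09% of all genes did. Cxcr5, the receptor that guides T cells to follicles, was at 57.1 ± 10.6 in Ctrl and 182 ± 64.9 in CKO cells (SD, n = 3 each; log2 fold change 1.63, SE 0.30, adjusted p = 0.109), and passed with the replicate block (adjusted p = 0.0381). Id3, an inhibitor of E proteins, was close to background in Ctrl cells, above it on 2 of 3 arrays, with a log2 fold change of 1.25 (SE 0.47, adjusted p = 0.494). Il2 and Ifng, both textbook targets of Blimp1 in T cells, had log2 fold changes of -0.29 (SE 0.26) and 0.57 (SE 0.58), and the list median was 0.06. Apart from Cxcr5 and Id3, the tested genes of this list met neither threshold. Il2 and Ifng lie outside the naming rule, as do Irf4, Cxcr3, Slamf6, Gata3, Rora and Il7r, and were picked after their values were seen.

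Effector Treg genes known to be expressed with Blimp1 had a negative median. Of 17 listed, 14 were tested, 1 fell in limma, where 0.156% of all genes fell. The study's thresholds were met by 6 in the lower and by 1 in the higher direction, against 4.34% and 3.09% of all genes, and the list median was -0.61. Il10, the cytokine most tied to Blimp1 in Treg cells, fell from 5014 ± 1569 in Ctrl to 111 ± 14.9 in CKO cells (SD, n = 3 each). The Il10 log2 fold change was -5.45 (SE 0.30, adjusted p = 0.00101), the first of all genes by p, and it kept its call with any 1 array left out, but lost it when the pair of replicate 1 (adjusted p = 0.251) or that of replicate 3 (0.127) was left out. Ctla4 and Tnfrsf18 (GITR), receptors of Treg cells, had log2 fold changes of -1.12 (SE 0.25, adjusted p = 0.175) and -1.23 (SE 0.28, adjusted p = 0.176), and Klrg1, a receptor of terminal effector cells, of -1.37 (SE 0.44, adjusted p = 0.374). With the replicate block Ctla4 and Klrg1 passed as well (adjusted p = 0.0427 and 0.0218). The member on the high side was the chemokine receptor gene Cxcr3, at 0.92 (SE 0.35, adjusted p = 0.501).

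Follicular helper genes, which go with Bcl6, were split. Of 19 listed, 14 were tested, 0 passed in limma, and the study's thresholds were met by 4 in the higher and by 1 in the lower direction, against 3.09% and 4.34% of all genes, with a median of 0.19. The highest was Pou2af1, a coactivator of octamer factors known from B cells and follicular helper cells, at 71.1 ± 14.2 in Ctrl and 389 ± 164 in CKO cells (SD, n = 3 each; log2 fold change 2.38, SE 0.35, adjusted p = 0.0525), which passed with the replicate block (adjusted p = 0.0250). Cxcr5, given above, had 2 more probes above background, with log2 fold changes of 1.33 and 0.60. Tox, a chromatin factor of follicular and exhausted cells, was at 214 ± 93.1 and 430 ± 77.3 (log2 fold change 1.08, SE 0.34, adjusted p = 0.360), and Slamf6 was the remaining gene on the high side (log2 fold change 1.62, SE 0.59, adjusted p = 0.478), which passed with the replicate block (adjusted p = 0.0479). Il6st, the shared receptor chain of IL-6 signalling, lay in the other direction (-1.36, SE 0.36, adjusted p = 0.254). Icos, Il21, Pdcd1 and Btla did not pass, with log2 fold changes of -0.60 (SE 0.34), 0.01 (SE 0.73), 0.36 (SE 0.51) and 0.44 (SE 0.30), and were also picked after their values were seen. The list thus held values on both sides of 0.

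Of the genes known to be repressed by Bcl6 in T cells, 8 of 12 were tested, 0 passed in limma and 2 were lower at the study's thresholds, as were 4.34% of all genes, with a median of -0.38. Selplg, which encodes the adhesion ligand PSGL-1, was at 1445 ± 153 in Ctrl and 609 ± 164 in CKO cells (SD, n = 3 each; log2 fold change -1.28, SE 0.27, adjusted p = 0.159), and Klf2, a factor for T cell egress, at -1.18 (SE 0.42, adjusted p = 0.444). Both passed with the replicate block (adjusted p = 0.0454 and 0.0346). Gata3, Rora and Il7r of the same list had log2 fold changes of 0.00 (SE 0.31), 0.49 (SE 0.42) and -0.46 (SE 0.30) and did not pass.

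The corepressors of Bcl6 itself included 3 of 11 tested genes (14 listed) that were lower at the study's thresholds, as were 4.34% of all genes, and 0 that passed in limma, and their median was -0.30. Mta3, a subunit of the NuRD complex that Bcl6 recruits in germinal centre B cells, was at 381 ± 16.7 in Ctrl and 188 ± 23.7 in CKO cells (SD, n = 3 each; log2 fold change -1.02, SE 0.21, adjusted p = 0.146). Its other probe had a log2 fold change of -0.73. The histone deacetylase genes Hdac5 and Hdac7 followed with -0.62 (SE 0.21) and -0.69 (SE 0.26), both with adjusted p-values above those of Mta3, at 0.424 and 0.496.

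For Bach2, whose own probe was not above background, only the surrounding genes could be read. Among its Maf partners and relatives 6 of 7 were tested, with 0 passing by either rule, and log2 fold changes from -0.54 to 0.00 (median -0.05). Of the effector genes that Bach2 is known to restrain, 9 of 12 were tested, 0 passed and 3 were lower at the study's thresholds, where 4.34% of all genes were (median -0.28). Of these, Il13 had intensities of 110 ± 24.8 (Ctrl) and 42.2 ± 28.0 (CKO; log2 fold change -1.54, SE 0.43, adjusted p = 0.294), and Il5, like Il13 a type 2 cytokine gene, a log2 fold change of -1.22 (SE 0.47, adjusted p = 0.508). The third was Klrg1. For Il5 the pairs ran from -2.73 to 0.10, so that the groups overlapped. Genes of naive and memory T cells, which Bach2 is known to help maintain, had 8 of 11 members tested, 0 passing in limma, and a median of -0.63, and 3 in the lower and 1 in the higher direction met the study's thresholds, against 4.34% and 3.09% of all genes. Foxp1, which keeps T cells quiescent, was at 196 ± 48.4 in Ctrl and 61.4 ± 22.6 in CKO cells (log2 fold change -1.72, SE 0.34, adjusted p = 0.140) and passed with the replicate block (adjusted p = 0.0148), while its other probe was at -0.56 and the Foxp1 log2 fold change over averaged probes was -1.14. Myb was near background in CKO cells, above it on 1 of 3 arrays (-1.27, SE 0.39, adjusted p = 0.330), and Klf2 and Id3 are given above.

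Relatives of the members did not pass the test. Of 14 other PRDM genes only 4 were tested, with log2 fold changes from -0.42 to 0.64, and of 13 other BTB zinc finger genes 10 were tested, from -0.47 to 0.55. In both families 0 genes passed in limma and 0 met the study's thresholds. Over the 12 lists, no tested gene had an unadjusted p under 0.05 with less than 1.5-fold, so these counts are also those at the unadjusted p alone.

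**Figure D4:**
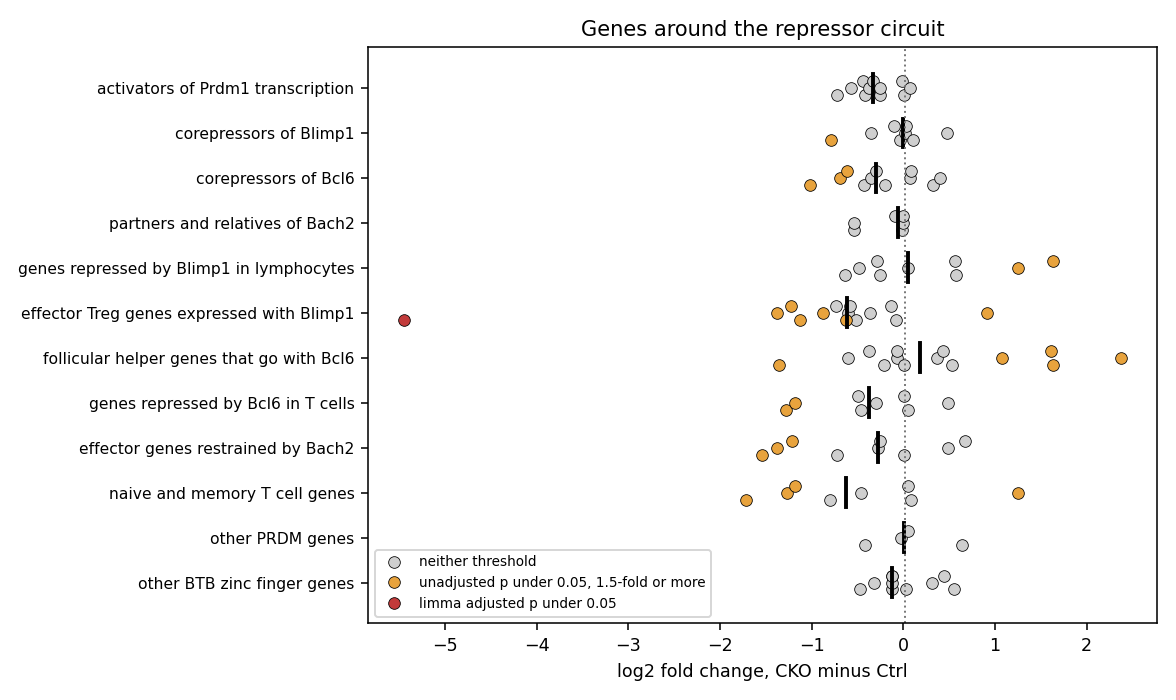
Log2 fold change (CKO minus Ctrl) of every tested gene in the 12 lists around the circuit, each point a gene coloured by the threshold it met, with a black bar for the list median and a dotted line for the median of all genes tested (0.02). Il10, at -5.45, is the only point at an adjusted p under 0.05. The orange points lie on both sides of 0 for the follicular helper, the effector Treg, and the naive and memory T cell genes.

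The genes next to the members on their chromosomes did not pass the test. Of the 3 protein-coding genes on each side of Prdm1 on chromosome 10, 4 were tested, and Atg5, an autophagy gene and its direct neighbour, was at 412 ± 41.0 in Ctrl and 405 ± 42.7 in CKO cells (SD, n = 3 each; log2 fold change -0.02, SE 0.22). On the other side lay Prep, a peptidase gene, at 0.15 (SE 0.26), and the farthest from 0 was Crybg1, at -0.56 (SE 0.28, adjusted p = 0.6999). Next to Bcl6 on chromosome 16 only Lpp was tested (0.34, SE 0.35), at an intensity close to background. Around Bach2 on chromosome 4, 4 of 6 were tested, from -0.16 for Manea to 0.41 for Map3k7. None of these 9 genes reached an adjusted p under 0.05, and all were named after their values were seen.

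Finally, the genes most like each member over the 6 arrays were found as those whose log2 intensities, centred on their own mean, had the smallest root mean square difference from the member, among 7075 genes above background on all arrays. Because both members differ between the groups, so do the genes most like them, and this is a description over 6 samples. Nearest to Prdm1 were Slc2a6, a hexose transporter (0.617, log2 scale), the cytokine gene Lif (0.816) and Synpo, an actin-binding protein (0.816). Slc2a6 was at 134 ± 43.8 in Ctrl and 1014 ± 136 in CKO cells and rose by 2.97 (SE 0.30, adjusted p = 0.0227), and Synpo rose by 3.34 (SE 0.43, adjusted p = 0.0321). With 1 array left out both calls held only without Ctrl replicate 2, and the Synpo log2 fold change lost its call with the slide block (adjusted p = 0.0655). Lif was at 132 ± 116 and 1035 ± 320, with a log2 fold change of 3.27 (SE 0.56, adjusted p = 0.0814), and passed with the replicate block (adjusted p = 0.0200).

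The profiles nearest to Bcl6 were those of Hectd2, a ubiquitin ligase (0.278), Pdzk1, a scaffold protein (0.303), and Ssx2ip, a centrosomal protein (0.322). Hectd2 rose by 1.68 (SE 0.23, adjusted p = 0.0385) at its brightest probe, while its other probes had log2 fold changes of 1.71 and 0.22, and the Hectd2 log2 fold change over averaged probes was 1.20 (adjusted p = 0.154). Ssx2ip rose by 1.49 (SE 0.21, adjusted p = 0.0483). Both lost their calls with a 90th percentile background (adjusted p = 0.0582 and 0.0814), an intensity trend (0.0635 and 0.0624), the slide block (0.0571 and 0.0631) or any 1 array left out, and the Ssx2ip log2 fold change also with the values as deposited (0.0509). Pdzk1 had a log2 fold change of 2.02 (SE 0.37, adjusted p = 0.106) and passed with the replicate block (adjusted p = 0.0428). Bcl6 was rank 13 among the genes most like Prdm1 (1.14), and Prdm1, with its wider spread, was rank 4594 among those most like Bcl6. Both members thus rose, with the highest CKO value in replicate 3 for Prdm1 and in replicate 1 for Bcl6.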

How the data were processed

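Illumina MouseWG 6v2 arrays of 3 Ctrl and 3 CKO pTreg samples were assigned to groups from the genotype labels. The authors exported intensity values from Genome Studio and quantile normalised them. The deposited table holds these intensities on a linear scale, with background subtracted (35.4% to 36.0% of values below 0), and the distributions of columns of the same slide are close. Here the 6 columns were quantile normalised together, raised to the background of the array (95th percentile of 1504 receptor probes), and log2 was taken. Of 34885 probes with 1 symbol, 14811 were above background on at least 2 arrays, and the brightest per gene was kept, giving 9593 genes. Symbols of 34807 probes were checked against RefSeq (GRCm38.p6). Each array had 32.3% to 38.3% of its probes above background.

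Groups were compared in limma 3.58.1 (R 4.3.3; lmFit, eBayes, no block) with Benjamini-Hochberg adjustment over all genes. Rose and fell denote an adjusted p under 0.05. The 3 biological replicates per group limit the precision. Deviations of same-numbered Ctrl and CKO arrays from their group means correlated over genes at 0.51, 0.49 and 0.56, other pairs at -0.31 to -0.23, and the labels give replicates 2 and 3 a shared day, so a fit with the replicate block is given where it changes a call. Within a group the deviations sum to 0, so the negative values of the other pairs follow from the positive ones and are no separate evidence. Named genes were the members, up to 4 genes per list that passed either rule, the brightest 2 markers, and the 3 nearest profiles. Members, lists and rules were chosen with earlier results of these data known. The steps were run on simulated arrays with known changes. Their noise was independent between arrays, without pairs or slides, so they cannot show how the fit without a block does on paired arrays. Detection p-values and Teff arrays were not used here, and the genome build behind the array annotation was not given.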

Additional observations from a re-analysis of the deposited data

How the results depend on the processing

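The signs of Prdm1 and Bcl6 were the same in all 20 alternatives run, and Bach2 was above background on 0 arrays in each. Over the processing settings the Prdm1 log2 fold change was 2.96 to 3.82 and kept its call (adjusted p up to 0.0460), while leaving out arrays or pairs gave 3.34 to 4.33 with adjusted p-values of 0.0523 to 0.442. The Bcl6 log2 fold change lost its call at 1.97 with the values as deposited (adjusted p = 0.0509), and at 1.98 with a 90th percentile background (0.0795), the mean of probes (0.0546) and the slide block (0.0824), and was 1.75 to 2.36 with arrays or pairs left out (adjusted p 0.0858 to 0.552). As probes of the members, Prdm1 lost its call, at 3.82, with the 90th percentile (0.0650) and the slide block (0.0705), and was 3.34 to 4.33 with arrays left out. As probes of the members, Bcl6, which did not pass, gained a call at 1.98 with the 99th percentile (0.0498), no filter on dim probes, an intensity trend (0.0287) and the replicate block (0.0390), and at 1.70 with an offset in place of the floor (0.0241). The genes called, 26 as reported, were 49 with the offset, 150 with no filter, 16 with the slide block, 183 with the replicate block and 0 to 10 with arrays or pairs left out. The 0 were without the pairs of replicate 1 and of replicate 3, settings in which 611 and 590 genes met unadjusted p and fold. For genes called, unadjusted p and fold of the study gave 712, with 460 under the offset, 1154 under the replicate block and 590 to 745 with arrays or pairs left out. The cause of these shifts was not tested, except that fewer arrays leave fewer degrees of freedom. Without the filter most added probes lie at the floor, so its p-values are not used. The genotype by slide term had 0 genes in the 13 settings in which it was fitted. It was not fitted with the slide block or the replicate block, with a pair left out, or without an array of slide 1. Of the values of other named genes under the alternatives, 430 of 500 stayed on their side of the threshold and none reversed. List counts and medians were judged by closeness to the reported value, and 430 of 480 counts and 215 of 240 medians stayed close. Some medians near 0 changed sign. The median of genes repressed by Blimp1 was 0.06 as reported and -0.07 with the offset. That of the other BTB zinc finger genes was -0.12 as reported and 0.03 with no filter. Leaving out the pairs of replicates 2 and 3, and leaving out arrays from list medians, was chosen after seeing the data. Probes near background limit Bach2, Id3 and Myb.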
